A study of Tupaia belangeri with 2 samples.

Results

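PAX3, PAX7, OTX2 and DBX1 were chosen by name, as 4 genes that pattern the embryonic midbrain, out of the 23975 gene models counted in single-cell transcriptomes of tree shrew (Tupaia belangeri) embryo brains. Each name belonged to 1 gene model of the TS_2.0 assembly, namely evm.model.chr1.1442 for PAX3, evm.model.chr13.694 for PAX7, evm.model.chr5.149 for OTX2 and evm.model.chr18.100 for DBX1, and the identifiers place them on chromosomes 1, 13, 5 and 18. The counts carry no positions, so no coordinates are given here. The samples were the whole brains of 2 untreated embryos of 4 to 5 postconceptional weeks (embryos 1 and 2), dissociated with papain and sequenced as 1 library of the 10x Chromium kit each, with no other condition. Strain, sex and genotype were not given in the sources used here, and the brain region that a cell came from is known only through the genes it expressed.

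PAX3 and PAX7 are paired-box transcription factors of the dorsal neural tube, and in the midbrain they mark the alar plate that becomes the tectum. OTX2 is a homeobox factor of the forebrain and midbrain that sets the caudal border of the midbrain and is kept in choroid plexus and in some young neurons. DBX1 is a homeobox factor of dividing progenitors at intermediate dorsoventral positions, and cells lose it as they become neurons.

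A cell was kept with at least 200 genes detected, which left 17735 of 18926 barcodes (8408 from embryo 1, 9327 from embryo 2), with 38192755 and 35785697 UMIs (unique molecular identifiers, each standing for a captured RNA molecule). The cells fell into 19 clusters built without the 4 genes, and a cluster took a "-like" name only from at least 3 markers of a fixed list. The clusters that matter most below are cluster 0 (midbrain-type GABA neuron-like, with GAD1, GAD2, GATA3 and TFAP2B), cluster 10 (dividing cell-like, 1 of 3 such clusters with clusters 4 and 11), cluster 12 (radial glia-like, as was cluster 5) and cluster 3, which earned no name because only VIM and NES of the radial glia list marked it and which was led by TESC, CDKN1C, HS3SB, JAG1, CAPS2 and DLL3. Cluster 6 was named granule neuron-like from 4 markers, but none of them was among its 10 leading genes. The share of cluster 0 was 11.5% in embryo 1 against 22.2% in embryo 2, and 18 barcode sequences occurred in both libraries.

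The 4 genes were sparse. PAX3 had 1310 UMIs in embryo 1 and 1919 in embryo 2, and 11.2% of cells held at least 1. For OTX2 the totals were 998 and 1844 UMIs, in 11.6% of cells. PAX7 had 269 and 459 UMIs (3.49% of cells) and DBX1 183 and 135 (1.46% of cells). At least 1 UMI of any of the 4 was seen in 3832 cells, or 21.6%. Most cells with a given gene held a single UMI of it, from 65.4% of such cells for PAX3 to 86.1% for PAX7. DBX1 was the one gene with more UMIs in embryo 1 than in embryo 2. Levels are given below as UMIs per 1000000 UMIs of a group (CPM), summed over its cells in each embryo, and are compared within a gene.

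PAX3 was highest in cluster 10, with 171 CPM for embryo 1 and 209 CPM for embryo 2 (190 ± 26.6, SD, n = 2 embryos here and below). It reached 156 and 189 CPM in cluster 3 (173 ± 24.0) and was thus slightly lower there in each embryo, at 0.909 of cluster 10 in embryo 1 (interval 0.789 to 1.05) and 0.907 in embryo 2 (0.798 to 1.03), ratios within counting error of 1. In cluster 0 it stood at 109 and 126 CPM (117 ± 11.98), below both in each embryo. These 3 clusters held 82.2% of the gene's UMIs although they were 28.8% of the cells. Radial glia-like cluster 12 followed with 63.9 and 55.0 CPM, then dividing cluster 11 with 23.8 and 25.7 CPM. All other neural clusters lay between 1.41 and 18.4 CPM in an embryo, and their order could not be read from 2 embryos.

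PAX7 followed another order, with its highest level in neurons. In cluster 0 it stood at 51.2 CPM for embryo 1 and 56.9 CPM for embryo 2 (54.1 ± 4.08), with 54.0% of the gene's UMIs in that cluster. Cluster 3 (24.6 and 26.9 CPM) and cluster 10 (27.0 and 24.3 CPM) overlapped each other at a lower level and added 20.9% and 14.6%. Every other cluster was at 5.33 CPM or less in both embryos. Radial glia-like cluster 12, which had clear PAX3, held 1 and 5 PAX7 UMIs.

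OTX2 had 73.0% of its UMIs in neuron-like clusters, against 59.2% for PAX7, 33.1% for PAX3 and 5.97% for DBX1. Its level in cluster 0 was 236 CPM for embryo 1 and 281 CPM for embryo 2 (258 ± 32.1), and that cluster held 66.9% of its UMIs. Cluster 3 had 64.4 and 58.5 CPM, cluster 10 had 33.7 and 32.9 CPM, and radial glia-like cluster 12 had 22.8 and 25.4 CPM, an order that was the same in both embryos. Choroid plexus-like cells, an epithelium in which OTX2 is known to persist, gave 34.8 and 60.2 CPM from 8 and 14 UMIs and overlapped cluster 3. Against cortical glutamate neuron-like cells this was a ratio of 6.998 in embryo 1 (95% exact interval 2.51 to 18.2) and of 11.1 in embryo 2 (4.76 to 26.2), intervals that cover counting error only.

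DBX1 was scarce in the clusters named neuron-like. In cluster 3 it stood at 33.3 and 24.5 CPM in embryos 1 and 2 (88 and 79 UMIs), or 52.5% of the gene's UMIs. Cluster 10 had 25.3 and 16.2 CPM (57 and 30 UMIs), or 27.4%, and overlapped cluster 3. Cluster 0 held 0 UMIs in embryo 1 and 1 in embryo 2, so the level in cluster 3 was at least 25.8-fold higher in embryo 1, with 0 taken as 3 UMIs, and its ratio to that single UMI in embryo 2 was 118 (interval 20.5 to 4706). Radial glia-like cluster 12 had 8 and 3 UMIs. Neuron-like cells of all kinds together gave 9 and 10 UMIs.

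**Figure D1:**
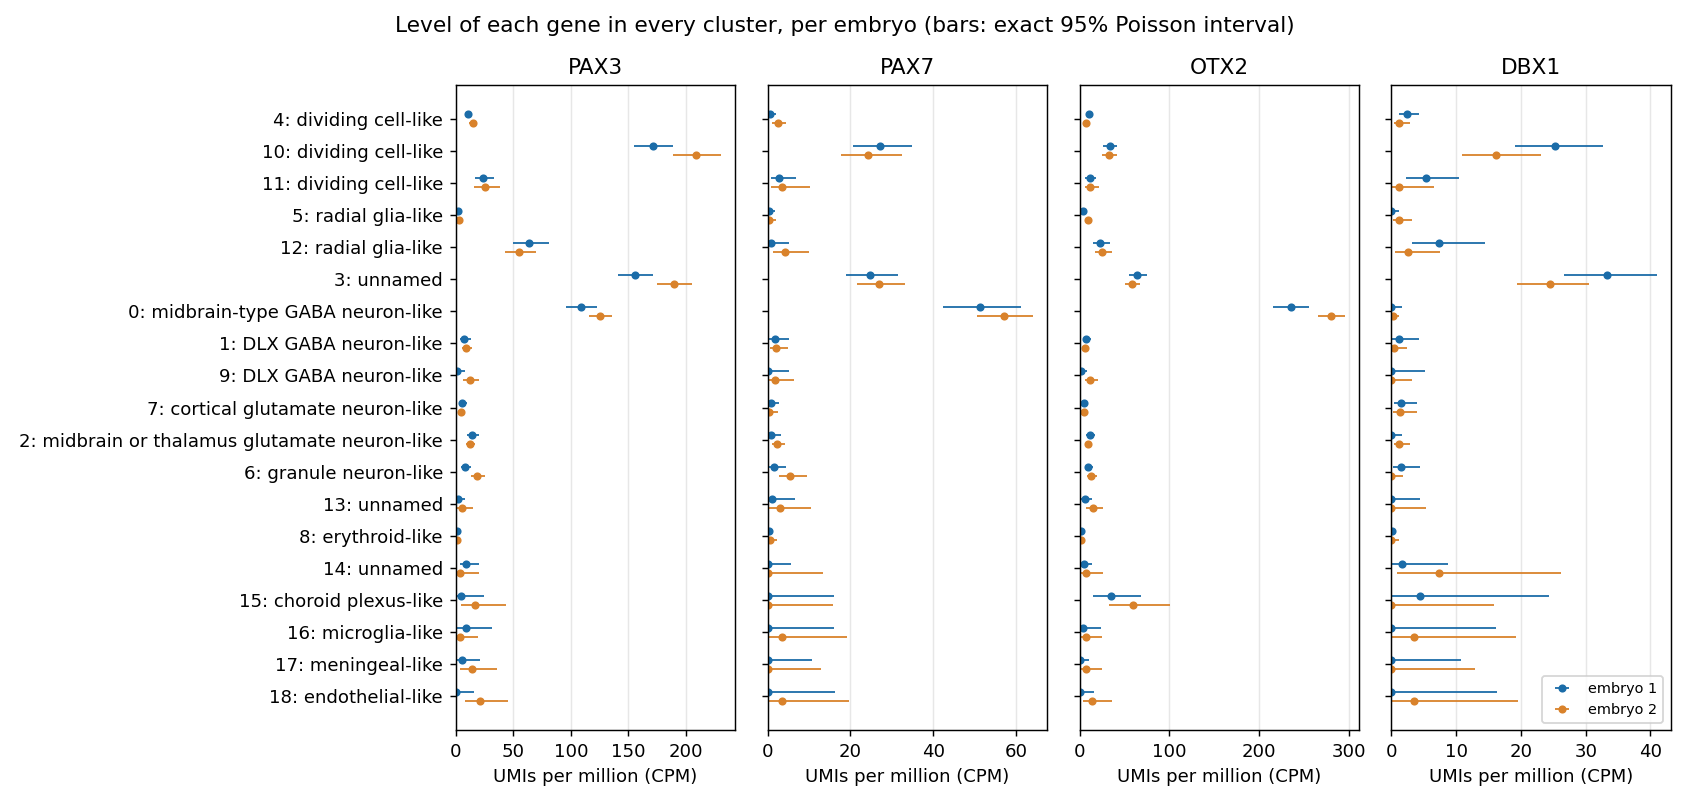
Level of PAX3, PAX7, OTX2 and DBX1 (x axes, CPM, each with its own range) in the 19 clusters (rows) for embryo 1 (blue) and embryo 2 (orange), with exact 95% Poisson intervals as bars. PAX3, PAX7 and OTX2 stand out in clusters 0, 3 and 10, and DBX1 in clusters 3 and 10 but not in cluster 0.

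A low level of each gene was found in cells that should lack it. In erythroid-like cells, where haemoglobin took 88.3% and 88.0% of UMIs, PAX3 had 12.2 and 13.1 UMIs per 1000000 other UMIs in embryos 1 and 2. The same measure was 14.99 and 18.4 for OTX2, 3.75 and 5.25 for PAX7, and 0.937 and 0 for DBX1. PAX3 and OTX2 in DLX GABA neuron-like and cortical cells lay below these values in both embryos, and no expression is read from them. The part of free RNA or of doublets in these levels was not tested.

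Shares of cells gave the same clusters after each cell was thinned to 1500 UMIs, which left out 2302 shallower cells. PAX3 was then seen in 24.1% of cluster 10, 21.1% of cluster 3 and 15.7% of cluster 0 (54.4%, 43.5% and 20.7% before thinning). For OTX2 the thinned shares were 31.5% in cluster 0, 8.66% in cluster 3 and 5.95% in cluster 10 (41.7%, 20.0% and 17.4% before). PAX7 was seen in 7.91% of cluster 0, and DBX1 in 4.41% of cluster 3 and 2.50% of cluster 10. In erythroid-like cells the thinned shares were 0.405% for PAX3, 0.304% for OTX2, 0.101% for PAX7 and 0.101% for DBX1, at a median of 12898.5 UMIs per cell before thinning against 2200 in cluster 0. Haemoglobin made up most of the 1500 UMIs kept in these cells. Their shares are therefore lower than a matched background for neural cells would be.

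**Figure D2:**
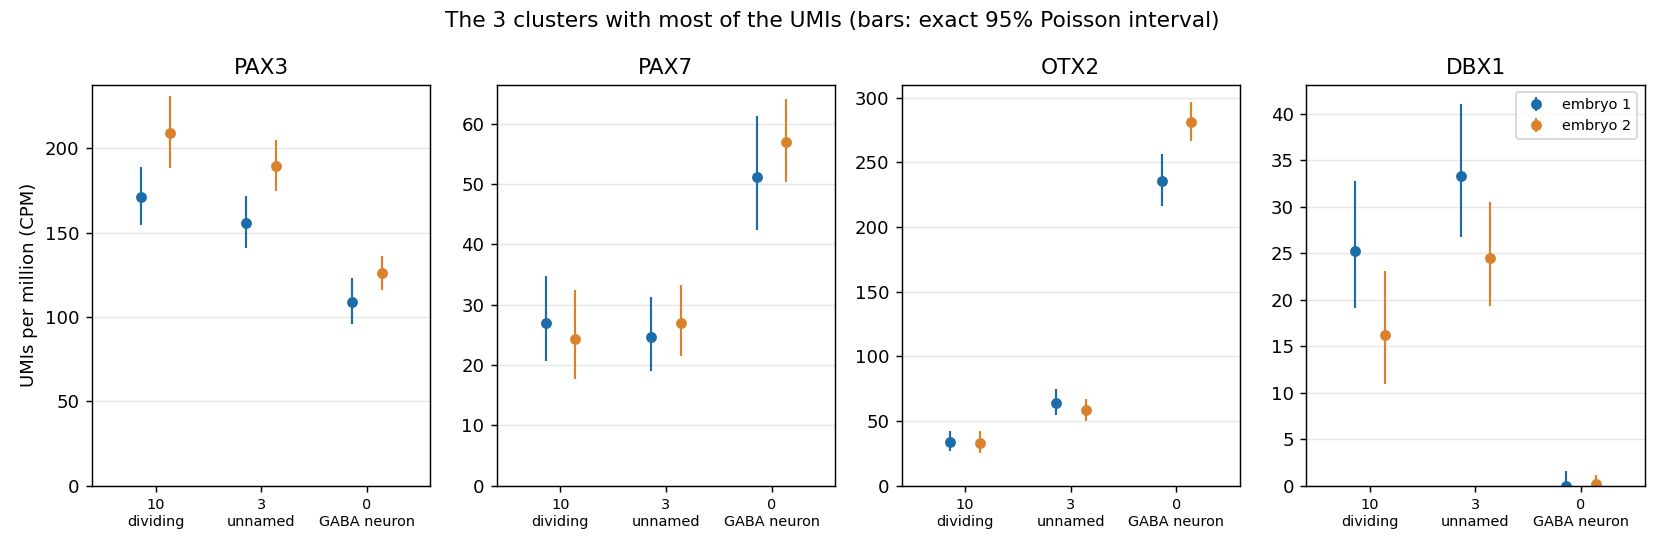
Levels (y axes, CPM) in dividing cluster 10, unnamed cluster 3 and GABA neuron-like cluster 0 for embryo 1 (blue) and embryo 2 (orange), with exact 95% Poisson intervals as bars. From cluster 10 to cluster 3 to cluster 0 the level of OTX2 was higher at each step in both embryos, PAX7 was level and then higher, PAX3 was lower in cluster 0 and DBX1 was at or near 0 there.

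Across clusters 10, 3 and 0 the genes thus stood in different proportions. MKI67, a marker of dividing cells, was at 3328 and 3267 CPM in cluster 10, 247 and 223 CPM in cluster 3 and 52.5 and 30.1 CPM in cluster 0. GAD2, an enzyme that makes GABA, ran the other way with 17.7 and 14.03, 26.5 and 20.4, and 1222 and 1328 CPM. OTX2 in cluster 3 was 1.91 times its level in cluster 10 in embryo 1 (interval 1.45 to 2.54) and 1.78 times in embryo 2 (1.33 to 2.41). From cluster 3 to cluster 0 OTX2 was a further 3.66 times higher in embryo 1 (3.08 to 4.38) and 4.80 times in embryo 2 (4.12 to 5.62), and PAX7 2.08 times (1.52 to 2.86) and 2.11 times (1.66 to 2.72). PAX3 in cluster 0 was 0.699 of its level in cluster 3 in embryo 1 (0.595 to 0.820) and 0.664 in embryo 2 (0.592 to 0.744). These 3 clusters were set side by side after their levels were seen, so the ratios are descriptions with no test, and whether cells of 1 cluster give rise to those of another was not measured.

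The comparison of all progenitor-like with all neuron-like cells asks in which of them each gene stood higher. It took 4496 cells of the radial glia-like and dividing clusters and 9471 cells of the neuron-like clusters, summed per embryo, and left the unnamed clusters out. Both sums pool brain regions, and whether these neurons descend from these progenitors was not measured. By edgeR's quasi-likelihood test with the embryo as a block and Benjamini-Hochberg adjustment over 11132 genes, 67.8% of all genes were called at an adjusted p under 0.05 (33.5% higher and 34.3% lower in progenitor-like cells), and all 4 genes were. With so many genes called, a call here says little by itself, and the directions and sizes are what differ.

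DBX1 was higher in progenitor-like cells, with 6.71 against 0.781 CPM in embryo 1 and 3.92 against 0.602 CPM in embryo 2 (log2 fold change 3.11 ± 0.31, SE, adjusted p = 2.58e-12). PAX3 was higher, with 43.9 against 28.7 CPM and 50.6 against 44.5 CPM (0.59 ± 0.098, adjusted p = 6.61e-07). The PAX3 difference was 0.84 in embryo 1 alone and 0.41 in embryo 2 alone. It was 0.38 (adjusted p = 0.00256) when libraries were scaled by their totals. OTX2 was lower in progenitor-like cells, with 14.2 against 53.7 CPM and 14.7 against 87.7 CPM (-2.05 ± 0.11, adjusted p = 2.11e-21). PAX7 was lower, with 5.66 against 11.2 CPM and 5.98 against 18.2 CPM (-1.11 ± 0.16, adjusted p = 4.07e-08). The neuron-like levels of PAX3, PAX7 and OTX2 were higher in embryo 2, where cluster 0 took a larger share of cells. The progenitor-like levels of OTX2 lay below the erythroid-like measure given above (14.99 and 18.4 in embryos 1 and 2). No OTX2 expression is read from the progenitor-like sum, although its clusters 10 and 12 lay above that measure.

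The PAX7 call was lost when clusters 3 and 13, both unnamed, were added to the progenitor-like and neuron-like sums (-0.27, adjusted p = 0.0794), and when cells were assigned by a few marker genes without clusters (-0.17, adjusted p = 0.422). The other 3 calls stood in both cases, but the added clusters moved PAX3 to 1.31, OTX2 to -1.24 and DBX1 to 4.15, and without clusters PAX3 was 1.35. Of the 39 other patterning genes listed, 33 had a gene model and 18 were tested, of which 6 were higher and 8 lower in progenitor-like cells, with a median log2 fold change of 0.21 against -0.01 over all genes. The higher ones were led by the isthmus signals FGF17 (6.85 ± 0.56) and FGF8 (4.18 ± 0.30) with the progenitor factor NKX6-2 (4.48 ± 0.34). The lower ones were led by the LIM-homeobox neuron factors LHX1 (-4.52 ± 0.10) and LHX5 (-4.38 ± 0.20).

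Among neurons, GABA neuron-like cells of cluster 0 were compared with other neurons to ask where the 4 genes persist. Against midbrain or thalamus glutamate neuron-like cells of cluster 2 (20.2% of 9703 genes called, 8.62% higher), 3 of the 4 genes were higher in cluster 0. OTX2 stood at 236 against 11.5 CPM in embryo 1 and 281 against 9.44 CPM in embryo 2 (log2 fold change 4.62 ± 0.16, adjusted p = 1.56e-20). PAX7 stood at 51.2 against 0.916 CPM and 56.9 against 2.24 CPM (4.87 ± 0.28, adjusted p = 5.00e-15, but 5.71 without embryo 2 and 5.65 without the highest doublet scores), and PAX3 at 109 against 14.2 CPM and 126 against 12.7 CPM (3.11 ± 0.17, adjusted p = 9.91e-16). The cells of cluster 0 were far above those of cluster 2 in both embryos for each of the 3. DBX1 had 0 and 1 UMIs against 0 and 5, too few to show a difference (adjusted p = 0.266).

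Against DLX GABA neuron-like cells, which share the transmitter but carry the DLX factors of forebrain GABA neurons, the same 3 genes were higher (22.8% of genes called, 11.4% higher). The DLX group had 5.83 and 7.98 CPM of OTX2, 1.25 and 1.99 CPM of PAX7 and 5.83 and 10.3 CPM of PAX3 in embryos 1 and 2. The log2 fold changes were 5.23 ± 0.17 for OTX2 (adjusted p = 2.73e-21), 5.01 ± 0.28 for PAX7 (3.45e-15) and 3.85 ± 0.18 for PAX3 (3.82e-17). Without the highest doublet scores PAX3 was at 5.45 and PAX7 at 5.88. The comparison shares the cluster 0 cells with the previous one. DBX1 had 2 and 1 UMIs in the DLX group and did not pass (adjusted p = 0.525).

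Of the 17 patterning genes tested in the first of these comparisons, 2 were higher in cluster 0 (LHX5 by 5.43 ± 0.24 and LHX1 by 5.26 ± 0.12) and 5 lower, led by the Iroquois factors IRX5 (-1.41 ± 0.11) and IRX3 (-1.13 ± 0.10), with a median of -0.18 (all genes 0.00). The engrailed gene EN1, a midbrain and anterior hindbrain factor, was among the lower ones (-1.04 ± 0.18). Against DLX GABA neuron-like cells 8 of 17 were higher, including LHX1, LHX5, IRX3, EN2 (3.35 ± 0.21) and EN1 (2.96 ± 0.33). In the same comparison 3 were lower, among them the forebrain factor NKX2-1 (-4.35 ± 0.30) and also PAX6 (-3.16 ± 0.26), and the median was -0.23.

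Between the glutamate classes the levels were low. PAX3 was higher in midbrain or thalamus than in cortical glutamate neuron-like cells (23.9% of genes called, 11.5% higher), with 14.2 against 5.74 CPM in embryo 1 and 12.7 against 4.53 CPM in embryo 2 (1.19 ± 0.32, adjusted p = 0.00568). The PAX3 difference was 2.44 at the finer clustering and 1.94 without the highest doublet scores. The higher of these levels lay near the 12.2 and 13.1 per 1000000 other UMIs of erythroid-like cells, and the lower ones under it. OTX2 gave 11.5 against 4.98 CPM and 9.44 against 5.43 CPM and did not pass (0.82 ± 0.34, adjusted p = 0.0753). It did pass when libraries were scaled by their totals (0.94, adjusted p = 0.0391) and at the finer clustering (1.18, adjusted p = 0.0312). The OTX2 levels of both classes lay below those of erythroid-like cells per 1000000 other UMIs. PAX7 (adjusted p = 0.302) and DBX1 (adjusted p = 0.589) had at most 9 UMIs per embryo and class and did not pass. Of 17 patterning genes tested here 7 were higher, led by EN1 (4.96 ± 0.38) and IRX5 (4.85 ± 0.18), and 3 lower, led by EMX2.

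At the finer clustering (resolution 1.0) both neuron classes divided unevenly. Cells of cluster 0 split into a larger group of 1913 cells with 152 and 164 CPM of PAX3 in embryos 1 and 2 and a smaller one of 1118 cells, marked also by TFAP2A, with 63.1 and 82.6 CPM. OTX2 was at 295 and 363 CPM in the larger and 176 and 192 CPM in the smaller, and PAX7 at 58.0 and 63.4 against 44.1 and 49.9 CPM. PAX3 and OTX2 were higher in the larger group in both embryos, with exact intervals for counting error that did not overlap. PAX7 leaned the same way, but its intervals overlapped in both embryos. In embryo 1 they were 44.9 to 73.6 CPM in the larger group and 32.8 to 57.9 CPM in the smaller. In embryo 2 they were 53.9 to 74.0 CPM and 41.1 to 60.0 CPM, so no PAX7 difference is read from these groups. Cells of glutamate cluster 2 split into 1074 cells with 7 and 7 PAX3 UMIs (5.14 and 2.80 CPM) and 597 cells, marked also by POU4F1, with 24 and 44 (29.8 and 28.9 CPM). OTX2 in these groups was at 4.41 and 3.59 CPM against 23.6 and 19.1 CPM, so the signal of cluster 2 for both genes came mostly from the smaller group.

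Within cluster 0 the genes were set against TFAP2A, TFAP2B and GATA3, factors of midbrain GABA neurons. A TFAP2 gate took cells with a UMI of TFAP2A or TFAP2B and none of GATA3 (804 cells), and a GATA3 gate the reverse (317 cells). Both kinds of UMI were present in 164 cells and neither in 1750, so most cells were outside the comparison. Median depths were 2396.5 UMIs per cell in the TFAP2 gate and 2429 in the GATA3 gate. A gate rests on 1 UMI, so a missing UMI does not show that a factor is absent. Whether the gates hold separate kinds of neuron was not tested. PAX3 stood at 204 CPM in the TFAP2 gate and 84.6 CPM in the GATA3 gate of embryo 1, and at 175 and 116 CPM in embryo 2. PAX7 stood at 106 against 23.1 CPM (69 and 6 UMIs) and 89.8 against 43.4 CPM. OTX2 went the other way, with 151 against 265 CPM and 156 against 347 CPM.

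The 2 gates did not overlap between embryos for any of the 3 genes. With 2 embryos this says little by itself, and the share of all tested genes without overlap was not counted. By the same test (5.25% of 4670 genes called, 2.25% higher and 3% lower) PAX3 was higher in the TFAP2 gate by 0.80 ± 0.17 on the log2 scale (adjusted p = 0.000186) and PAX7 by 1.37 ± 0.27 (adjusted p = 4.17e-05), and OTX2 was lower (-1.05 ± 0.13, adjusted p = 5.50e-13). The test has 1 residual degree of freedom per gene, and with DESeq2 no call was kept (adjusted p = 1.00 for PAX3 and PAX7 and 0.216 for OTX2, with the same directions). The PAX3 call was also lost among cells with at least 1000 genes (0.33, adjusted p = 0.607), and without embryo 2 the PAX7 difference was 2.19. The gates were chosen with earlier results of these same data known, so the p-values are not independent evidence for the pattern. DBX1, with 1 UMI, was removed by the filter on low counts.

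Cells with neither kind of UMI gave 67.3 and 99.1 CPM of PAX3, 29.7 and 34.2 CPM of PAX7 and 283 and 353 CPM of OTX2 in embryos 1 and 2. These levels were nearer to the GATA3 gate than to the TFAP2 gate for each gene. Cells of the TFAP2 gate thus had more PAX3 than those of the GATA3 gate, while the finer group marked by TFAP2A had less PAX3 than the larger one. Of the 9 patterning genes tested between the gates none was higher in the TFAP2 gate and 3 were lower, namely the TALE-homeobox factor MEIS2 (-1.25 ± 0.25), LHX5 (-0.84 ± 0.22) and LHX1 (-0.36 ± 0.09), with a median of -0.20.

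**Figure D3:**
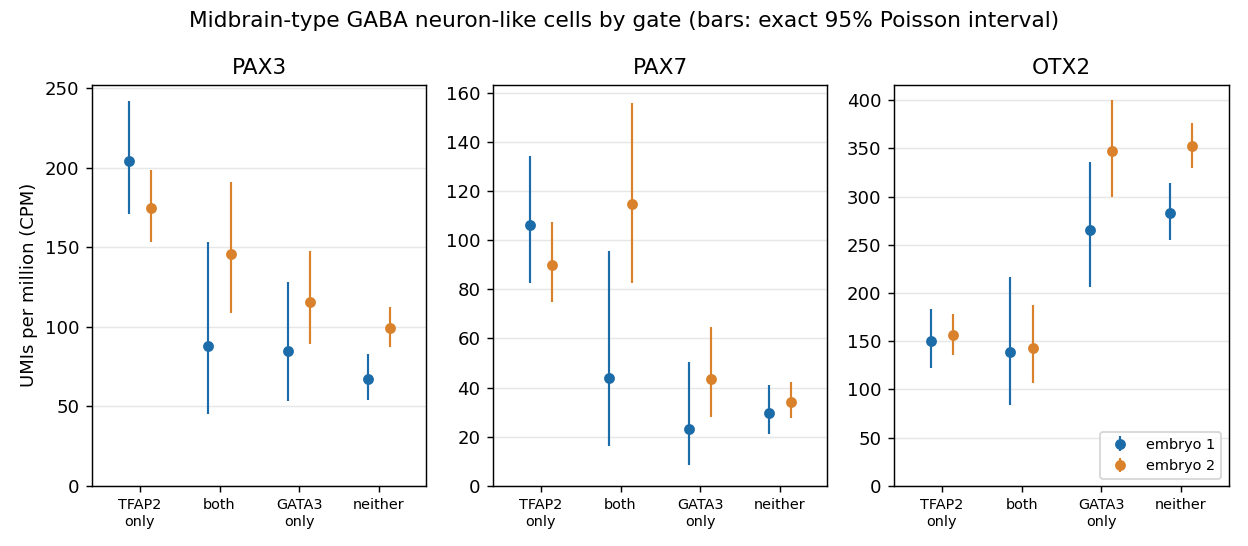
PAX3, PAX7 and OTX2 (y axes, CPM) in cells of cluster 0 with UMIs of TFAP2A or TFAP2B only, of both kinds, of GATA3 only, or of neither, for embryo 1 (blue) and embryo 2 (orange), with exact 95% Poisson intervals as bars. PAX3 and PAX7 are higher in TFAP2-only than in GATA3-only cells in both embryos, and OTX2 is lower.

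Progenitor-like cells were not uniform for any of the 4 genes. Dividing cluster 10 had 16.2 times the PAX3 level of dividing cluster 4 in embryo 1 (interval 11.8 to 22.5) and 14.2 times in embryo 2 (10.8 to 19.0). DBX1 in cluster 10 was 10.7 times (5.43 to 23.6) and 13.2 times (5.08 to 43.6) its level in cluster 4, and OTX2 3.18 times (2.17 to 4.71) and 4.48 times (2.85 to 7.18). Between the radial glia-like clusters, PAX3 in cluster 12 was 34.7 times (15.2 to 97.7) and 18.8 times (9.001 to 45.4) its level in cluster 5.

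The classes as wholes were compared by the same test (29.4% of genes called, 14.5% higher and 14.8% lower in dividing cells). Dividing cell-like cells had more PAX3 than radial glia-like cells, with 58.3 against 17.4 CPM in embryo 1 and 69.1 against 18.6 CPM in embryo 2 (1.86 ± 0.15, adjusted p = 5.69e-12). PAX7 stood at 8.49 against 0.459 CPM and 8.54 against 1.53 CPM (3.15 ± 0.39, adjusted p = 9.58e-08), where the radial glia-like value rests on 2 and 6 UMIs and the difference was 4.15 without embryo 2. DBX1 stood at 9.36 against 1.84 CPM and 5.30 against 1.53 CPM (2.16 ± 0.42, adjusted p = 0.000124, but 0.0752 with DESeq2). The dividing class was higher for each of the 3 in both embryos, and cluster 10 supplied most of their UMIs in it. PAX3 did not follow the classes cluster by cluster. Radial glia-like cluster 12, with 63.9 and 55.0 CPM, lay above dividing clusters 4 (10.6 and 14.7 CPM) and 11 (23.8 and 25.7 CPM).

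OTX2 stood at 17.2 against 8.72 CPM in embryo 1 and 14.9 against 14.3 CPM in embryo 2 (0.56 ± 0.19, adjusted p = 0.0256). That difference was 1.02 in embryo 1 alone and 0.10 in embryo 2 alone. The call was lost without the embryo block (adjusted p = 0.0905), with DESeq2 (0.115), among cells with at least 1000 genes (0.0650) and without the highest doublet scores (0.0668). Of these OTX2 levels, only that of dividing cells in embryo 1 exceeded the erythroid-like measure given above (14.99 and 18.4 in embryos 1 and 2). No expression is read from the others. Within the classes, clusters 10 (33.7 and 32.9 CPM) and 12 (22.8 and 25.4 CPM) lay above that measure, and clusters 4, 5 and 11 below it. Of 17 patterning genes tested 5 were higher in dividing cells, led by EN2 (1.74 ± 0.20) and the Wnt receptor FZD10 (1.16 ± 0.12), and 3 lower, the floor plate factor FOXA1 (-2.44 ± 0.68), FGF8 (-1.56 ± 0.26) and FGF17 (-1.37 ± 0.34), with a median of 0.16 (all genes -0.02). FGF8 stood at 55.7 and 43.2 CPM in cluster 12.

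A region gate then asked whether the 4 genes go with midbrain or isthmus markers among progenitors. The midbrain or isthmus gate took progenitor-like cells with a UMI of EN1, EN2, PAX2, PAX5, CNPY1 or FZD10 and none of a set of forebrain markers that includes EMX2, DLX1 and DLX2 (957 cells), and the forebrain gate the reverse (686 cells). Another 40 cells had both kinds of UMI and 2813 neither. Median depths were close, at 5183 and 4876 UMIs per cell. The gate is not independent of PAX3, since its marker CNPY1 was among the genes closest to PAX3 across neural clusters (Pearson's r = 0.90). FZD10 was so when the unnamed clusters were left out (r = 0.89). PAX7 (r = 0.90), OTX2 (0.84) and DBX1 (0.73) were themselves like PAX3 over the 13 neural clusters. The 4 genes were chosen as midbrain genes, and the gate with earlier results of these same data known. The p-values below are therefore not independent evidence for the pattern.

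All 4 genes were higher in the midbrain or isthmus gate, beside 17.9% of 7695 genes called (9.98% higher and 7.9% lower). PAX3 had 445 and 458 UMIs in embryos 1 and 2 (141 and 153 CPM) against 3 and 3 (1.26 and 1.59 CPM). The ratios were 111 (interval 37.9 to 543) and 96.5 (32.8 to 470), with a log2 fold change of 6.67 ± 0.23 (adjusted p = 9.81e-27). PAX7 had 58 and 49 UMIs against none, so it was at least 14.5-fold higher in embryo 1 and at least 10.3-fold higher in embryo 2, with 0 taken as 3 UMIs per embryo (adjusted p = 6.35e-11, but 0.596 with DESeq2).

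DBX1 had 68 and 33 UMIs (21.5 and 11.0 CPM) against 1 and 1, ratios of 51.1 (8.87 to 2048) and 20.9 (3.49 to 849), with an adjusted p of 8.10e-10. OTX2 had the smallest difference, with 32.9 against 5.48 CPM and 26.7 against 5.81 CPM (2.43 ± 0.27, adjusted p = 1.14e-09). The forebrain gate levels of PAX3, PAX7 and OTX2 lay below those of erythroid-like cells per 1000000 other UMIs, and DBX1 rested on 1 UMI per embryo there. Cells with neither kind of UMI lay between the gates, with 13.3 and 14.3 CPM of PAX3 and 8.31 and 11.6 CPM of OTX2. These PAX3 levels lay near those of erythroid-like cells per 1000000 other UMIs, and the OTX2 levels below them.

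Of the 9 patterning genes tested that no gate used, 6 were higher in the midbrain or isthmus gate and 3 lower. IRX3 (7.36 ± 0.34), IRX5 (5.23 ± 0.19) and FGF8 (4.71 ± 0.59) led the higher ones. The lower ones were NKX2-1 (-3.74 ± 0.42), a ventral forebrain factor, PAX6 (-1.49 ± 0.18) and MEIS2 (-0.42 ± 0.14), and the median was 1.73 (all genes 0.00).

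**Figure D4:**
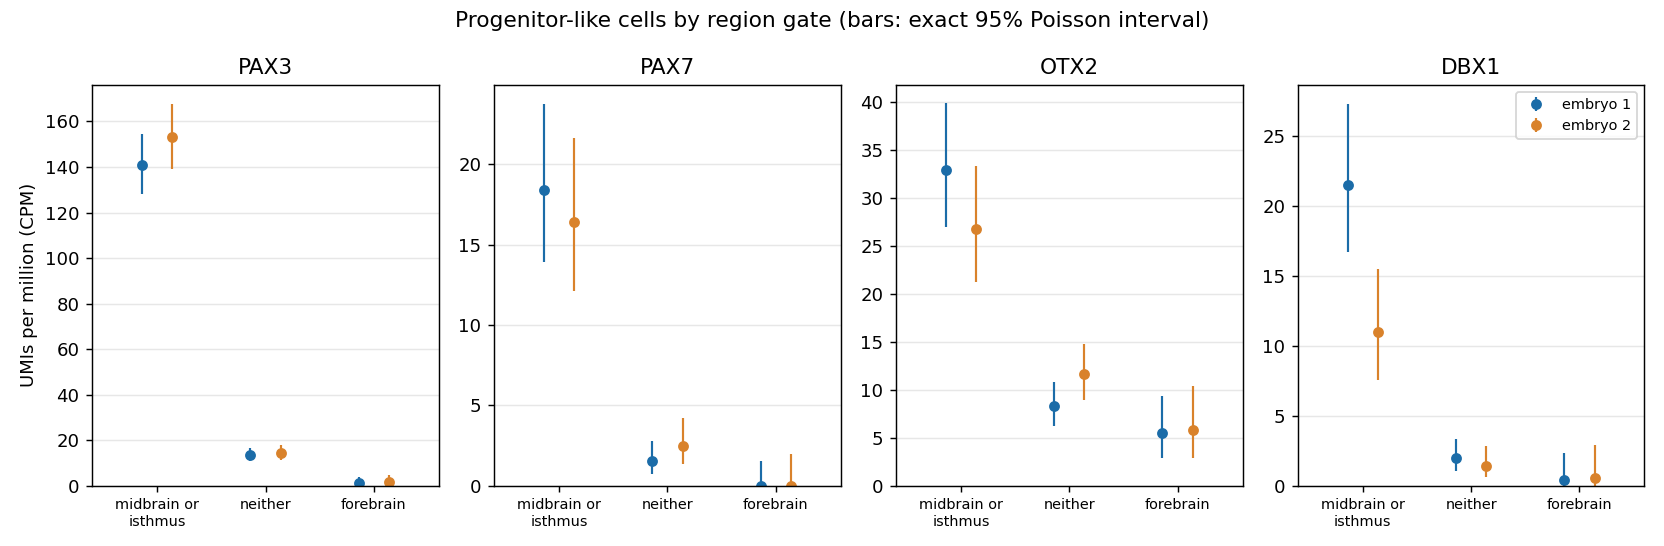
PAX3, PAX7, OTX2 and DBX1 (y axes, CPM) in progenitor-like cells of the midbrain or isthmus gate, of neither gate and of the forebrain gate for embryo 1 (blue) and embryo 2 (orange), with exact 95% Poisson intervals as bars. Each gene is highest in the midbrain or isthmus gate in both embryos, and PAX7 has no UMI in the forebrain gate.

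Counted by cluster, the midbrain or isthmus gate held 78.4% of the cells of cluster 10 in embryo 1 and 84.1% in embryo 2. It held 54.3% and 61.8% of unnamed cluster 3, 36.9% and 35.1% of cluster 12, 7.79% and 7.77% of cluster 4 and 2.86% and 3.58% of cluster 5. GABA neuron-like cluster 0, with 22.6% and 26.1%, had a smaller share than cluster 12 but more PAX3, so the clusters' order by this share was not their order by PAX3. These shares need 1 UMI and were not thinned to equal depth. Median depths were 2200 UMIs per cell in cluster 0, 3987 in cluster 12 and 5273 in cluster 10, and the part of depth was not tested. The forebrain gate held 30.7% and 28.1% of cluster 4 and 0.270% and 0.353% of cluster 10. Within cluster 3, cells of the midbrain or isthmus gate had 159 and 199 CPM of PAX3, and cells with neither kind of UMI had 154 and 170 CPM. DBX1 there was at 32.7 and 25.2 CPM in the gate and 36.0 and 21.6 CPM in cells of neither, so the levels of both genes in cluster 3 overlapped between gated and other cells.

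**Figure D5:**
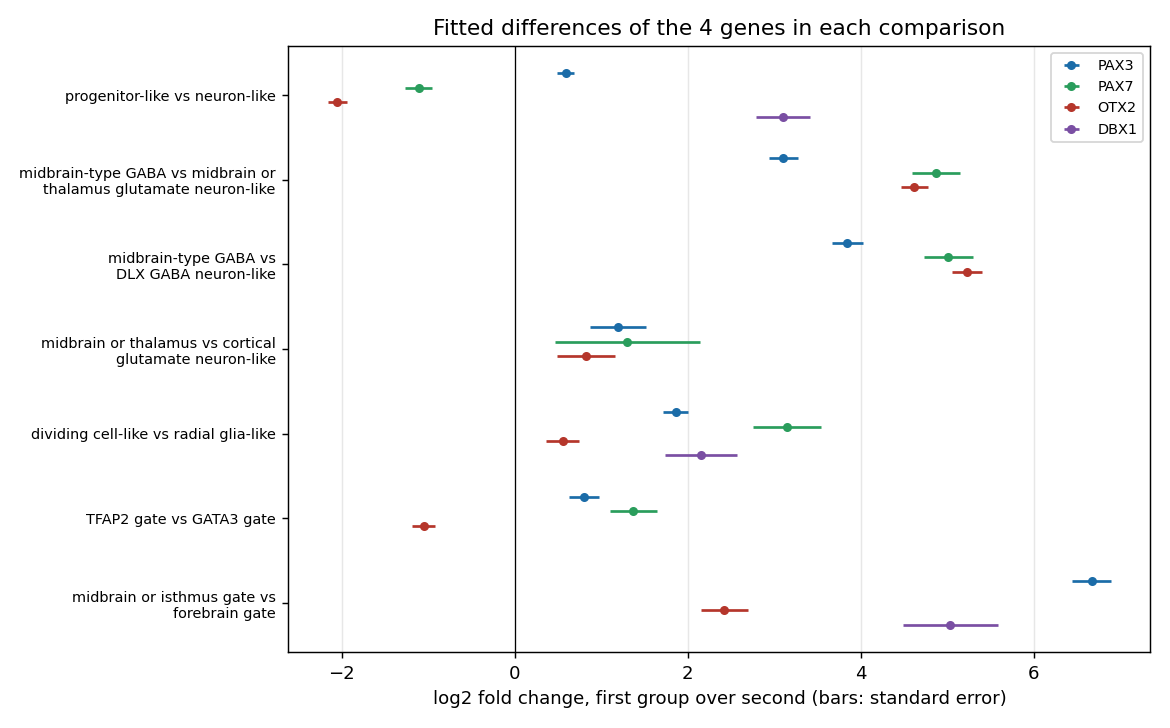
Fitted log2 fold changes (x axis, first group over second) of PAX3, PAX7, OTX2 and DBX1 in the 7 comparisons (rows), with standard errors as bars. DBX1 is not drawn in the comparisons among neurons, where it had too few UMIs, nor PAX7 in the region gates, where the forebrain gate held none. OTX2 and PAX7 are lower and PAX3 and DBX1 higher in progenitor-like cells, and the TFAP2 gate is higher for PAX3 and PAX7 and lower for OTX2.

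The overlap of the genes within cells was counted beside the number that would arise if 2 genes were independent within a cluster, at each cell's own depth. PAX3 and PAX7 were found together in 276 cells against 206 by independence, a ratio of 1.39 in embryo 1 and 1.31 in embryo 2. The ratio was above 1 in cluster 0 (1.51 and 1.25), cluster 10 (1.29 and 1.24) and cluster 3 (1.15 and 1.15), and 44.6% of cells with a PAX7 UMI also held PAX3. PAX3 and OTX2 shared 533 cells against 528, with ratios of 0.874 and 0.945 within cluster 0. PAX3 and DBX1 shared 123 cells against 116, PAX7 and OTX2 224 against 215, PAX7 and DBX1 37 against 31.1 (ratios of 1.34 and 1.02 in embryos 1 and 2), and OTX2 and DBX1 57 against 56.1. These counts describe 2 embryos and carry no test.

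Likeness was measured as Pearson's r across the 13 neural clusters, on log2 of the mean CPM of the embryos plus 1, for 10489 genes. Each r thus rests on 13 values. The genes share libraries and depth, so likeness is given as a description. PAX7 was most like OTX2 among the 4 genes (0.93), then PAX3 (0.90), and PAX3 and OTX2 stood at 0.84. DBX1 was like PAX3 (0.73) more than PAX7 (0.51) or OTX2 (0.34). Leaving the 4 genes themselves out of the lists, the 5 genes closest to OTX2 were DMBX1, a midbrain homeobox gene, at 0.94, then TMEM38B, TMEM260, SHISA8 and ODZ3, and all 5 were among the closest when the unnamed clusters were left out.

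For PAX7 the closest were RL6, PCDH8, DMBX1 (0.88), ABHD3 and TMEM38B, of which 3 were kept without the unnamed clusters. PAX3 was closest to ABHD3 (0.91), HS3SB, CNPY1 (0.90), RL6 and SLC45A3, and DBX1 to PGM5 (0.97), KREMEN1, SEPT11, HTAI2 and FST, and for each of these genes 1 of 5 was kept. The lists of PAX3 and DBX1 thus depend on whether the unnamed clusters are counted.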

How the data were processed

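The authors dissociated 2 whole embryo brains, prepared 1 library of 10x Chromium 3′ v3 chemistry per embryo and ran cellranger count (Cell Ranger 3.1.0) against the TS_2.0 assembly and its annotation; fastp and Seurat 3 are also named in the submitters' processing notes. The deposited values are counts of UMIs, raw and not normalized, for every barcode and gene model, and 0 columns belonged to other samples. The 9241 and 9685 barcodes are the cells per embryo of the study's methods, while its results state a larger total.

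Cells with at least 200 genes were kept. Counts were scaled to 10000 per cell and logged, 2000 variable genes other than the 4 genes and the patterning panel gave 20 principal components and 20 neighbours, and Leiden clustering ran at resolution 0.5 (scanpy 1.11.5, leidenalg 0.10.2). A cluster was named for the list with most markers at 2-fold and in 10% of its cells, with at least 3 and no tie. Doublets were kept, since Scrublet called 0 and 1 cells and so did not work. UMIs summed per embryo and group were tested with edgeR 4.0.16 (TMM, default filter on low counts, quasi-likelihood test, embryo as block, Benjamini-Hochberg adjustment over all genes tested, threshold 0.05), in R 4.3.3. The region and GABA gates need at least 1 UMI. A further marker of the forebrain gate is not reported here. The TFAP2, region and progenitor fits each used 4 sums, and the class fit 14 sums of 7 classes. On simulated counts with 200 genes changed 4-fold, 95% were recovered for the progenitor comparison, 86% for the first neuron comparison, 85% for the TFAP2 gate and 91.5% for the region gate. In the same order 3.06%, 3.37%, 6.08% and 6.15% of calls were false. The simulation used the fitted dispersion trend. Its 4-fold changes exceed the TFAP2 gate differences (1.74-fold for PAX3, 2.58-fold for PAX7 and 2.07-fold for OTX2), so it does not cover those calls. Nor does it cover PAX3 (1.51-fold) and PAX7 (2.16-fold) in the progenitor comparison. The comparisons not listed here were not simulated. Cells are not replicates. With the embryo as a block, p-values rest on how group differences vary between the 2 embryos, with dispersion estimates shared across genes. The TFAP2, region and progenitor fits each left 1 residual degree of freedom and the class fit 6. The smallest p-values therefore lean on the shared estimates. Intervals are exact 95% ones and cover counting error. Alternatives were RLE factors, library totals, no gene filter, no embryo block, DESeq2 1.42.0, at least 1000 genes per cell, high Scrublet scores left out, cells with at least 1% haemoglobin left out, resolution 1.0, no clustering, and each embryo left out; a sum with the unnamed clusters and a likeness without them were chosen after seeing the data.

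The 4 genes are named in full, panel genes by at most the 5 largest changes each way, and for each gene the 5 most alike among models with at least 50 UMIs. The genes, lists and tests were chosen with earlier results of these data known. All 4 symbols matched a RefSeq gene of another assembly, so no coordinates or sequences were taken from it.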

Additional observations from a re-analysis of the deposited data

Results flagged for a closer look

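PAX3 had 6 UMIs in the 1191 barcodes left out for holding under 200 genes, which together held 5967338 UMIs, and this is above the 3 counts that an absence allows. Per UMI it was below the level of PAX3 in erythroid-like cells (1.42 and 1.58 CPM in embryos 1 and 2). No expression is read from it. The same barcodes held 2 UMIs of OTX2, 1 of PAX7 and 0 of DBX1.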

How the results depend on the processing

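No direction of a called difference was reversed by any alternative run, and the calls not named here kept their side of the threshold. PAX7 lower in progenitor-like cells was lost without clusters (-0.17) and with the unnamed clusters added (-0.27). OTX2 in dividing against radial glia-like cells was lost with no replicate block (0.55), at least 1000 genes (0.47), high Scrublet scores left out (0.55) and DESeq2 (0.57), and DBX1 there with DESeq2 (2.16). OTX2 between glutamate classes passed with library totals (0.94) and at resolution 1.0 (1.18). In the TFAP2 gate PAX3 was lost at 1000 genes (0.33), and DESeq2 lost PAX3 (0.93), PAX7 (1.56) and OTX2 (-0.97), as it lost PAX7 in the region gate (7.65, against a group with no UMI). High Scrublet scores left out also moved DBX1 in the region gate from 5.04 to 5.64. The cause of these changes was not tested.

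Without the embryo block, which joins sums of the same embryo, the number of called genes fell from 1957 to 1026 against midbrain or thalamus glutamate cells, 2210 to 1326 against DLX GABA cells, 2315 to 1503 between glutamate classes, 2848 to 1643 for dividing cells, 245 to 74 between the GABA gates and 1376 to 452 between the region gates. DESeq2 called 1100, 1300, 1458, 1524, 19 and 260 genes in the same order, and 4798 against 7542 for progenitors. With at least 1000 genes 102 were called between the GABA gates.

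With 1 embryo left out there is no test. PAX7 against midbrain or thalamus glutamate cells then ran from 4.58 to 5.71, PAX3 between glutamate classes from 1.17 to 1.38, DBX1 there from -5.47 to -0.22 on 5 UMIs or fewer per group, and PAX7 in the TFAP2 gate from 1.04 to 2.19. PAX7 in dividing against radial glia-like cells ran from 2.50 (without embryo 1) to 4.15 (without embryo 2). Of levels, PAX3 in dividing cells was 72.0 CPM at resolution 1.0 (63.7 otherwise), and in GABA neurons 97.0 at 1000 genes and 133 as a mean over cells (117). PAX7 in dividing cells was 8.68 at 1000 genes, 8.72 without high Scrublet scores, 8.64 without haemoglobin-rich cells, 9.81 at resolution 1.0 and 7.66 as a mean over cells (8.51), and OTX2 there 17.8 at resolution 1.0 (16.05). The depth limits DBX1 in neurons and PAX7 outside clusters 0, 3 and 10, where a few UMIs carry each value.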

Other observations

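Gene models numbered next to a member sometimes shared its profile across the 13 neural clusters. HTAI2 (evm.model.chr18.101), numbered next after DBX1 (evm.model.chr18.100), was the gene 4th closest to it of 10489 (r = 0.87), with 12.4 and 20.0 CPM in cluster 10 and 4.54 and 6.19 CPM in cluster 3 of embryos 1 and 2, so its highest cluster was not that of DBX1. TMEM260 (evm.model.chr5.146), 3 numbers from OTX2 (evm.model.chr5.149), ranked 3 for OTX2 (r = 0.89), with 153 and 171 CPM in cluster 0 and 74.6 and 71.8 CPM in cluster 3. ACSL3 (evm.model.chr1.1451), 9 numbers from PAX3 (evm.model.chr1.1442), ranked 30 for it (r = 0.76), and 2 of 10287 over the 11 named clusters (r = 0.90). The closest of the models near PAX7 ranked 345. Whether reads of neighbouring models were shared was not tested.

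The cells richest in PAX3 were 3 cells of cluster 10 with 27, 23 and 21 UMIs and totals of 57450, 52163 and 53830 UMIs. No cell held more than 7 UMIs of OTX2, 5 of PAX7 or 4 of DBX1.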
